A study of Orbilia oligospora with 12 samples.

Results

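The genes described here encode the parts of G protein and Ras signalling in Arthrobotrys oligospora, a fungus that catches nematodes in adhesive networks of hyphae. They were chosen by protein domain from the annotation deposited with the FPKM values: G-alpha, G-gamma, RGS, Ras-type GTPase, RasGAP, RasGEF, RhoGAP, RhoGEF, and receptor domains of the Dictyostelium cAMP receptor and Git3 families. Of 11479 genes, 79 carried such a domain. The 20 of them that the annotation places in the KEGG maps for yeast MAPK signalling, endocytosis, the yeast cell cycle or autophagy were set aside, which left 59 members. All 59 had at least 1 TPM (a unit scaled per transcript length and library) in at least 3 of the 12 libraries and were tested. By class they were 6 receptors, 8 genes with a G-alpha domain, 6 RGS genes, 5 RasGEF genes, 4 RasGAP genes, 20 small GTPase genes, 4 RhoGEF genes and 6 RhoGAP genes, and none carried a G-gamma domain. Membership was set by the annotation and used no expression value, but the set was chosen with earlier results of these data known.

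Hyphae had grown for 5 days on potato dextrose agar at 28 °C. The groups, of 3 libraries each, were the strain labelled ΔAorlmA at 0 h, the wild type (WT) at 0 h, the labelled ΔAorlmA strain at 48 h and WT at 48 h, and every library is labelled as treated with nematode extract, which induces traps. The growth protocol in the labels names another deletion, ΔAosnf1, and the gene whose number matches the library titles, AOL_s00078g125, was not lost: it ranged over 72.2 to 164 TPM at 0 h and 87.3 to 109 TPM at 48 h in the libraries labelled ΔAorlmA, against 30.3 to 40.0 TPM and 27.9 to 45.1 TPM in WT. The strain is therefore called by its label throughout. The labels call the libraries biological replicates without saying more of separate cultures, so p-values measure the spread between these libraries.

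In fungi, a receptor in the cell membrane passes an outside cue such as a sugar, an amino acid or a pheromone to a G protein, whose alpha subunit exchanges GDP for GTP and then acts on targets such as adenylate cyclase. RGS proteins speed up the hydrolysis of GTP by G-alpha and so end the signal. Ras, Rac and Rab proteins are small GTPases that use the same switch, turned on by exchange factors (GEFs) and off by GTPase-activating proteins (GAPs), and they direct growth at the hyphal tip, the cell wall, the actin cytoskeleton and membrane traffic. In A. oligospora and other nematode-trapping fungi, G protein signalling is known as part of the path from sensing prey to forming traps.

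Clean reads numbered 48.5 to 61.1 M per library, and the depth per gene is not known from these values. A pair of libraries stood apart. The first labelled ΔAorlmA library at 0 h correlated less with its own group (mean Pearson r of 0.940 on log2 values) than with 1 labelled ΔAorlmA library at 48 h (0.952), and the first labelled ΔAorlmA library at 48 h less with its own group (0.958) than with 1 WT library at 48 h (0.965). Hydrophobins, proteins that coat spores and aerial hyphae, summed over 3 genes to 40.2 to 406 TPM in the labelled ΔAorlmA libraries at 0 h, 1798 to 2888 TPM in WT at 0 h, 82.3 to 1991 TPM in the labelled ΔAorlmA libraries at 48 h and 437 to 1120 TPM in WT at 48 h. The 1991 TPM came from the first labelled ΔAorlmA library at 48 h, against 82.3 and 218 TPM in the second and the third. Of the 3 genes, AOL_s00006g570 was detected in every library and made up nearly all of each sum, while AOL_s00075g89 was listed at 0 outside WT at 0 h. Their part in the results was not tested. In such bulk samples, fewer cells of a type and less RNA per cell cannot be told apart. The counts without both first libraries are given below, with single genes where they are described.

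The members were tested in 1 limma fit of log2(TPM + 1) over all 12 libraries and all 9355 genes that passed the filter, and a gene was called at a Benjamini-Hochberg adjusted p under 0.05. Fold changes on that scale understate the change of genes with low TPM. Across the 4 pairwise comparisons 42 members were called at least once and 17 never, beside 75.3% of all genes called at least once. A total of 2 were called in all 4 (1.76% of all genes): the RGS gene AOL_s00043g257 and the Rac-type GTPase gene AOL_s00079g171.

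At 0 h, the libraries labelled ΔAorlmA had 4 members above WT and 20 below, beside 8.87% of all genes tested called higher and 33.8% lower. The median log2 fold change was -0.49 over the members and -0.56 over all genes, so the members leaned downward much as all genes did. With median-of-ratios scaling, which brought the median of all genes to -0.06, 7 members were called higher and 7 lower (14.3% and 11.1% of all genes), and the members' median was 0.04. At 48 h, 5 members were higher and 6 lower (9.20% and 14.7% of all genes), and 8 and 5 after that scaling (10.8% and 12.2%). The members' median was -0.003 and that of all genes -0.11. The count at 48 h depended on single libraries: it was 19 without the first labelled ΔAorlmA library, 2 without the second, 1 without the third, and 7, 2 and 3 without the first, the second and the third WT library. The share of all genes called moved too: 33.1%, 8.15%, 5.25%, 13.1%, 9.20% and 7.45% in the same order, beside 23.9% with all libraries.

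Over time in WT, 13 members were higher and 13 lower at 48 h than at 0 h (17.6% and 28.7% of all genes), or 17 and 9 after median-of-ratios scaling (24.1% and 23.6%). The median log2 fold change was -0.20 for the members and -0.25 for all genes. The count of 26 was 15 without the second WT library at 0 h and also without the third at 48 h. In either of these fits 34.6% of all genes were called, beside 46.4% with all libraries. Over time in the labelled ΔAorlmA libraries, 8 members were higher and 4 lower (13.0% and 8.52%), and again 8 and 4 after that scaling (10.2% and 12.1%), with medians of 0.38 for the members and 0.14 for all genes. That count of 12 was 21 without the first library at 0 h, 4 without the second and 7 without the third, 4 without the second library at 48 h and 7 without the third. It was 1 in a fit of the compared groups alone. In the same order, 36.8%, 7.70%, 13.0%, 11.3%, 14.6% and 4.68% of all genes were called, beside 21.5% with all libraries.

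The interaction compares the change over time in the labelled ΔAorlmA libraries with that in WT. It was called for 4 members, all positive, beside 3.23% of all genes called positive and 1.20% negative, and for 3 members after median-of-ratios scaling (1.37% and 2.21%). The count was 2 without the third labelled ΔAorlmA library at 0 h or the first or second WT library at 0 h, and 1 without the second or the third WT library at 48 h. In the same order, 1.13%, 2.54%, 0.363%, 0.502% and 0.182% of all genes were called, beside 4.43% with all libraries. With both first labelled ΔAorlmA libraries left out, 28 members were called between strains at 0 h (53.3% of all genes), 23 at 48 h (42.8%), 29 over time in WT (57.3%), 23 over time in the labelled ΔAorlmA libraries (36.6%) and 10 for the interaction (14.4%). In each comparison the share of members called was near that of all genes, so what follows is an account of single genes and not of the set. The counts by class below stand beside the same shares of all genes.

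**Figure D1:**
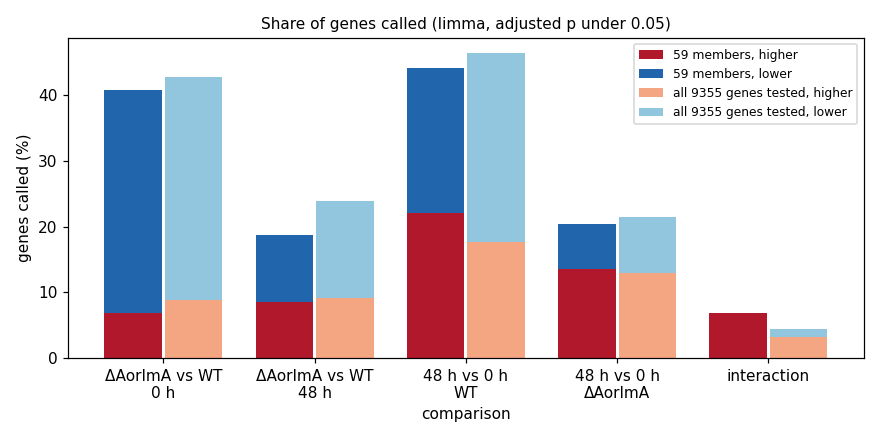
Share of genes called at an adjusted p under 0.05 (limma), in percent, for the 59 members and for all 9355 genes tested, split into higher and lower, in 5 comparisons. At 0 h the members split into 4 higher and 20 lower, and all genes lean downward in the same way (8.87% higher, 33.8% lower).

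In the authors' deposited table of calls, which gives no fold changes or p-values, 17 members were marked between strains at 0 h, 12 up and 5 down, beside 23.6% of all genes. It marks 13 members at 48 h, 9 up and 4 down (24.1% of all genes), 22 over time in WT, 12 up and 10 down (39.5%), and 11 over time in the labelled ΔAorlmA strain, 6 up and 5 down (21.9%). Among the members, the authors' calls thus lean upward at 0 h where the limma calls on TPM lean downward. The authors' calls over all genes were not split by direction here, and the scaling behind them is not given in the sources used here.

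Levels of the members spanned a wide range. TPM is scaled per length, so levels can be set side by side between genes as far as the gene models hold. The Ypt1 match AOL_s00215g224 lies 5 bases from another Ypt1 match, AOL_s00215g225, and its level would differ if they are a single gene. Means over the 12 libraries ran from 0.99 TPM for the receptor gene AOL_s00079g452 to 645 TPM for AOL_s00193g75, which is matched to Ran, the GTPase of nuclear transport. The 6 highest were AOL_s00193g75, the Ypt1 match AOL_s00215g224 (569 TPM), the Sar1 match AOL_s00083g157 (512 TPM), the Ryh1 match AOL_s00004g351 (469 TPM), the Arl1 match AOL_s00097g641 (409.7 TPM) and the Rac match AOL_s00079g171 (361 TPM). All 6 encode small GTPases, and 5 of them serve membrane traffic or nuclear transport. At the low end, 4 of the 6 receptors averaged under 10 TPM.

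**Figure D2:**
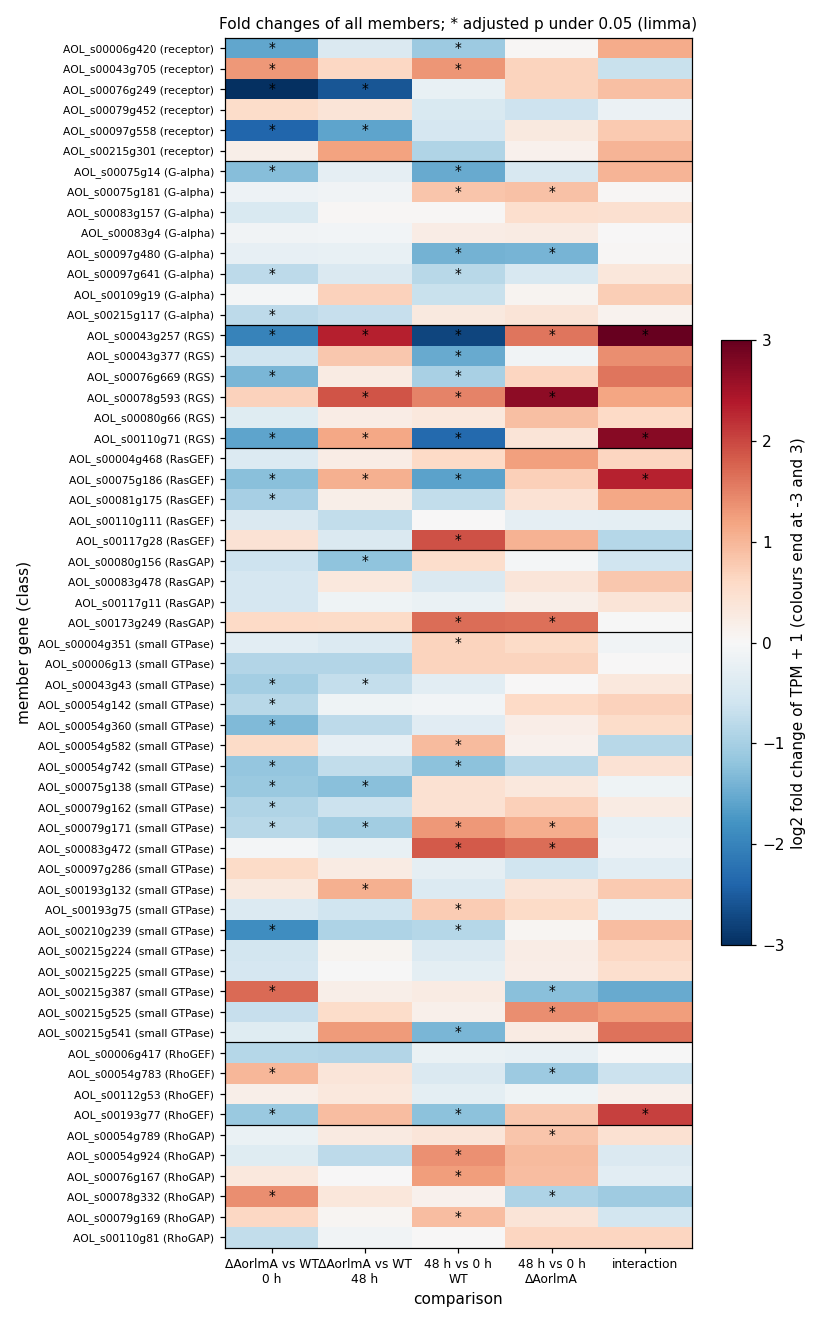
Log2 fold changes of TPM + 1 for the 59 members (down the page, grouped by class) in 5 comparisons, with the labelled ΔAorlmA strain over WT and 48 h over 0 h; a star marks an adjusted p under 0.05 (limma). The RGS genes AOL_s00043g257 and AOL_s00110g71 are lower at 0 h and higher at 48 h in the labelled ΔAorlmA libraries, as is the RasGEF gene AOL_s00075g186.

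Between strains, the receptors held the largest negative fold changes among the members. At 0 h, 3 of the 6 were lower and 1 higher in the labelled ΔAorlmA libraries. At 48 h, 2 were lower and none higher. Over time 1 rose and 1 fell in WT, and none was called in the labelled ΔAorlmA libraries. The annotation names some of them: AOL_s00006g420 is matched to GPR1, the receptor of Saccharomyces cerevisiae that senses glucose and feeds the cAMP pathway, AOL_s00076g249 to GCR1 of Arabidopsis thaliana, and AOL_s00097g558 carries the same KEGG orthology name, GCR1 and CrlA, without a Swiss-Prot match. The other 3 have a receptor domain and no further name.

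AOL_s00076g249 had 0.36, 3.45 and 2.76 TPM in the labelled ΔAorlmA libraries at 0 h, against 25.1, 29.4 and 38.4 TPM in WT. Every labelled ΔAorlmA library lay below every WT library (log2 fold change -3.48 with SE 0.61, adjusted p = 0.00208, limma), a call that held under all 13 alternatives run. At 48 h it had 8.7, 3.3 and 1.19 TPM in the labelled ΔAorlmA libraries and 14.2, 55.3 and 21.7 TPM in WT. The groups again did not overlap, although each spread widely (log2 fold change -2.58 with SE 0.61, adjusted p = 0.0138), and that call ended without the third labelled ΔAorlmA library or the second WT library (adjusted p from 0.00113 to 0.0682 over the alternatives). Over time the values were -0.23 (adjusted p = 0.775) in WT and 0.67 (adjusted p = 0.439) in the labelled ΔAorlmA libraries, neither of them called by limma.

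AOL_s00097g558 had 1.09, 2.21 and 1.3 TPM in the labelled ΔAorlmA libraries at 0 h, against 17.5, 13.6 and 6.86 TPM in WT, with no overlap (log2 fold change -2.37 with SE 0.39, adjusted p = 0.00164, limma). This call also held under all 13 alternatives. At 48 h the gene had 2.66, 1.36 and 2.24 TPM in the labelled ΔAorlmA libraries and 4.69, 9.67 and 11.2 TPM in WT (log2 fold change -1.57 with SE 0.39, adjusted p = 0.0158). The groups stayed apart at 48 h as well, yet the call ended without the second or the third library of either strain (adjusted p from 0.0099 to 0.0681).

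The GPR1 match AOL_s00006g420 was low throughout: 1.44, 1.56 and 0.87 TPM in the labelled ΔAorlmA libraries at 0 h, against 5.22, 5.38 and 6.41 TPM in WT (log2 fold change -1.55 with SE 0.29, adjusted p = 0.0026, limma). It was lower in each labelled ΔAorlmA library than in any WT library, and the call held under all 13 alternatives. At 48 h the labelled ΔAorlmA libraries had 1.99, 0.98 and 1.08 TPM and the WT libraries 2.13, 3.24 and 1.32 TPM, which overlap, and the difference was not called (log2 fold change -0.44 with SE 0.29, adjusted p = 0.27). In WT the gene was lower at 48 h than at 0 h (log2 fold change -1.09 with SE 0.29, adjusted p = 0.00849), a call that ended with quantile normalization. Its change over time in the labelled ΔAorlmA libraries was 0.03 (adjusted p = 0.956), with a 95% interval -0.59 to 0.64.

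AOL_s00043g705, which carries a 7tm_2 domain, was the 1 receptor called higher at 0 h, with 90.98, 20.5 and 20.2 TPM in the labelled ΔAorlmA libraries and 13.5, 16.6 and 10.3 TPM in WT (log2 fold change 1.29 with SE 0.47, adjusted p = 0.0405, limma). The first labelled ΔAorlmA library was far above the other two. Without it the log2 fold change was 0.59 and the call ended, and it also ended without any single WT library (adjusted p from 0.00814 to 0.132 over the alternatives). At 48 h the gene had 60.9, 44.1 and 58.8 TPM in the labelled ΔAorlmA libraries and 36.1, 35.99 and 32.5 TPM in WT (log2 fold change 0.62 at adjusted p = 0.341). It rose over time in WT (log2 fold change 1.33 with SE 0.47, adjusted p = 0.0321). Leaving out the first or the third WT library at 0 h, or any 1 of those at 48 h, ended that call.

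The remaining receptors were not called in any comparison. AOL_s00215g301 had 2.69, 7.71 and 4.36 TPM in the labelled ΔAorlmA libraries at 48 h, against 1.66, 2.06 and 0.75 TPM in WT. These did not overlap, but the difference missed the threshold (log2 fold change 1.1987 with SE 0.42, adjusted p = 0.0534, limma), and it passed with median-of-ratios scaling, a pseudocount of 0.1 or without the first labelled ΔAorlmA library. AOL_s00079g452, the lowest member, had 4.05, 1.25 and 0.69 TPM in the labelled ΔAorlmA libraries at 0 h and 1.47, 0.66 and 0.52 TPM in WT. At 48 h it had 0.86, 0.44 and 0.94 TPM in the labelled ΔAorlmA libraries and 0.19, 0.33 and 0.50 TPM in WT. Its differences between strains were 0.54 (adjusted p = 0.232) at 0 h and 0.38 (adjusted p = 0.459) at 48 h.

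**Figure D3:**
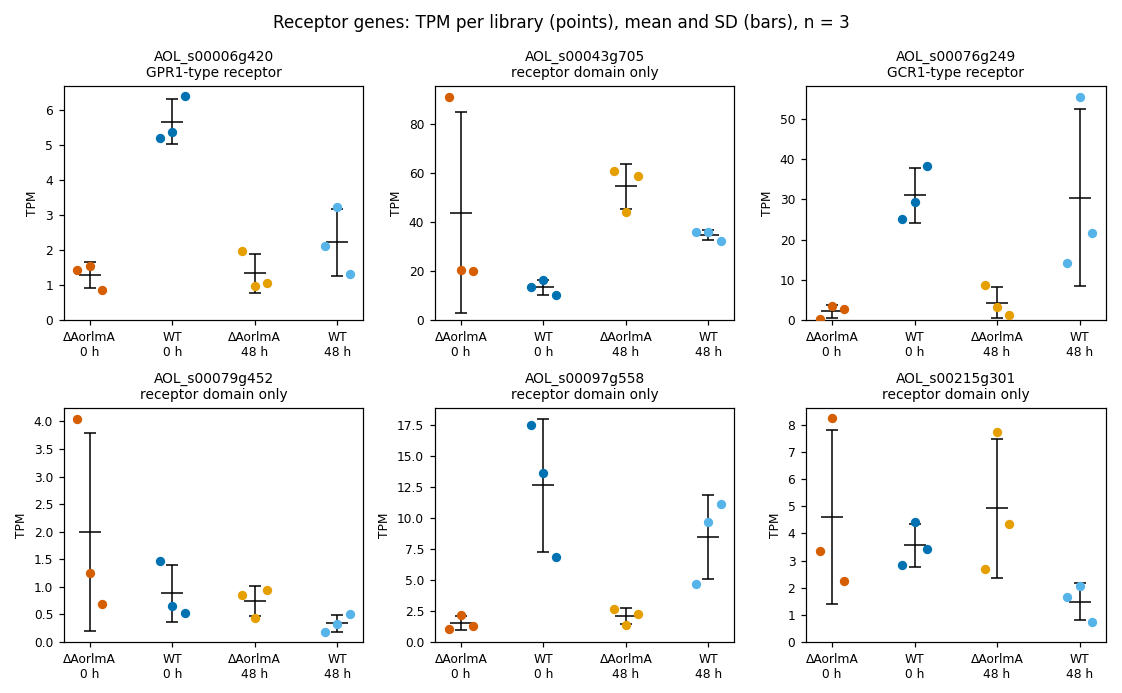
TPM of the 6 receptor genes in each library (points) with the mean and SD of 3 (bars), for the labelled ΔAorlmA strain and WT at 0 h and 48 h. AOL_s00076g249 and AOL_s00097g558 are lower in the labelled ΔAorlmA libraries at both times, and the higher mean of AOL_s00043g705 at 0 h rests on 1 library at 91.0 TPM.

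Of the 8 genes with a G-alpha domain, 3 have it as their first domain and are the G-alpha subunits proper. The other 5 are Arf and Sar type GTPases, which drive the budding of vesicles and share the fold. At 0 h, 3 of the 8 were lower and none higher in the labelled ΔAorlmA libraries, and after median-of-ratios scaling 1 was lower. At 48 h none was called. Over time 1 was higher and 3 lower in WT, and 1 higher and 1 lower in the labelled ΔAorlmA libraries.

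AOL_s00075g14, matched to GPA2 of Neurospora crassa, had 15.7, 25.2 and 16.8 TPM in the labelled ΔAorlmA libraries at 0 h, against 51.1, 50.1 and 41.5 TPM in WT, without overlap (log2 fold change -1.29 with SE 0.27, adjusted p = 0.00466, limma). In the libraries at 48 h it had 16.3, 12.7 and 10.8 TPM in the labelled ΔAorlmA strain and 17.95, 16.2 and 14.1 TPM in WT. The strains then overlapped (log2 fold change -0.27 with SE 0.27, adjusted p = 0.489). WT fell over time (log2 fold change -1.51 with SE 0.27, adjusted p = 0.000972), and both calls held under all 13 alternatives. The change over time in the labelled ΔAorlmA libraries was -0.49 (adjusted p = 0.209), called only with both first libraries left out. The difference between the changes over time was not called (log2 fold change 1.01 with SE 0.39, adjusted p = 0.129). In the authors' deposited table AOL_s00075g14 is marked over time in WT and not between strains at 0 h.

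AOL_s00075g181, matched to GPA1 of Aspergillus (Emericella) nidulans, a G-alpha subunit known there to favour growth over sporulation, rose over time in both strains. It had 286, 263 and 226 TPM at 48 h, against 183, 127 and 118 TPM at 0 h in the labelled ΔAorlmA libraries (log2 fold change 0.87 with SE 0.23, adjusted p = 0.0195, limma). In WT it had 288, 271 and 273 TPM at 48 h, against 174, 149.7 and 143 TPM at 0 h (log2 fold change 0.83 with SE 0.23, adjusted p = 0.00982). No library at 0 h reached any at 48 h. The call in WT held under all 13 alternatives, while that in the labelled ΔAorlmA libraries ended in a fit of those groups alone and without the second or the third library at 0 h or the second at 48 h (adjusted p from 0.00256 to 0.126). Between the strains the differences were -0.15 at 0 h (95% interval -0.64 to 0.34) and -0.11 at 48 h (95% interval -0.60 to 0.38).

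AOL_s00109g19, matched to GPA3 of N. crassa, had 43.6, 47.5 and 45.7 TPM in the labelled ΔAorlmA libraries at 48 h and 32.8, 26.5 and 25.3 TPM in WT. The groups did not overlap, but the test missed the threshold (log2 fold change 0.68 with SE 0.27, adjusted p = 0.0824, limma), and it passed with median-of-ratios scaling. At 0 h the labelled ΔAorlmA libraries had 43.6, 51.2 and 34.95 TPM and WT 58.9, 47.6 and 32.1 TPM, which overlap (log2 fold change -0.07 at adjusted p = 0.854).

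Among the Arf and Sar type genes, AOL_s00097g641, matched to Arl1, which acts at the Golgi in yeast, was lower in the labelled ΔAorlmA libraries at 0 h (log2 fold change -0.78 with SE 0.25, adjusted p = 0.0256, limma). That value was -0.23 after median-of-ratios scaling and the call ended, as it did in most fits that left out a library (all but that without the second labelled ΔAorlmA library) and without both first labelled ΔAorlmA libraries. AOL_s00215g117, matched to Arl3, was also lower (log2 fold change -0.78 with SE 0.25, adjusted p = 0.0265), with 47.2, 42.9 and 27.4 TPM in the labelled ΔAorlmA libraries and 61.8, 64.2 and 73.7 TPM in WT, and likewise lost its call after median-of-ratios scaling, quantile normalization, in the fit of those groups alone and without the third labelled ΔAorlmA library or the second or the third WT library. Over time in WT, the Arl1 match fell (log2 fold change -0.83 with SE 0.25, adjusted p = 0.0172), a call lost after median-of-ratios scaling and without the second or the third WT library at 48 h. The Arl2 match AOL_s00097g480, whose mouse counterpart takes part in folding tubulin, fell over time in both strains: 21.1, 11.1 and 16.1 TPM at 48 h, against 46.8, 65.6 and 24.6 TPM at 0 h in the labelled ΔAorlmA libraries (log2 fold change -1.38 at adjusted p = 0.0399), and 34.7, 14.1 and 12.5 TPM at 48 h, against 48.1, 65.8 and 40.9 TPM at 0 h in WT (log2 fold change -1.41 at adjusted p = 0.0184). Neither pair overlapped. The call in WT ended without the second WT library at 0 h or the second or the third at 48 h, and that in the labelled ΔAorlmA libraries without the first or second at 0 h or the second or the third at 48 h, with no filter on low values, and in the fit of those groups alone. The Sar1 match AOL_s00083g157 and the Arl8 match AOL_s00083g4 were called in no comparison.

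Among the RGS genes, 2 were called lower at 0 h and higher at 48 h in the labelled ΔAorlmA libraries. At 0 h, 3 of the 6 were lower and none higher (33.8% of all genes were lower), and at 48 h 3 were higher and none lower (9.20% of all genes were higher). Over time 1 rose and 4 fell in WT, and 2 rose and none fell in the labelled ΔAorlmA libraries. The interaction was positive and called for 2. The median log2 fold change of the 6 was -0.98 between strains at 0 h and 0.98 at 48 h, beside -0.56 and -0.11 over all genes, and it kept its sign under median-of-ratios scaling (-0.49 and 1.12). A change of sign in the class median was also seen for RasGEF genes (-0.44 at 0 h and 0.17 at 48 h), RasGAP genes (-0.50 and 0.10) and RhoGEF genes (-0.35 and 0.34), though under median-of-ratios scaling the medians at 0 h of the RasGAP and RhoGEF genes were positive (0.03 and 0.18).

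AOL_s00043g257, which holds an RGS domain and no other name, had 16.8, 17.5 and 13.3 TPM in the labelled ΔAorlmA libraries at 0 h, against 75.8, 73.3 and 53.5 TPM in WT. At 48 h it had 22.2, 98.2 and 57.2 TPM in the labelled ΔAorlmA libraries, against 8.97, 10.6 and 7.92 TPM in WT. All 3 labelled ΔAorlmA libraries were below all 3 WT libraries at 0 h and above all 3 at 48 h. The means were 15.9 ± 2.27 TPM in the labelled ΔAorlmA strain and 67.5 ± 12.2 TPM in WT at 0 h, and 59.2 ± 38.05 TPM and 9.17 ± 1.36 TPM at 48 h (SD, n = 3 each). The strain difference was called at 0 h (log2 fold change -2.01 with SE 0.42, adjusted p = 0.00438, limma) and in the other direction at 48 h (log2 fold change 2.34 with SE 0.42, adjusted p = 0.00669).

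Over time AOL_s00043g257 fell in WT (log2 fold change -2.74 with SE 0.42, adjusted p = 0.000309, limma) and rose in the labelled ΔAorlmA libraries (log2 fold change 1.61 with SE 0.42, adjusted p = 0.0205). The interaction was 4.35 with an SE of 0.60 (adjusted p = 0.0109, 95% interval 3.06 to 5.65), the largest value of any member. It held under all 18 alternatives run, with adjusted p from 0.000368 to 0.0444, and both strain differences and the fall in WT held under all 13. The rise in the labelled ΔAorlmA libraries ended in the fit of those groups alone and without the second or the third library of either time (adjusted p from 0.00101 to 0.101), and the first labelled ΔAorlmA library at 48 h was the lowest of its group. The authors' deposited table marks the gene in all 4 comparisons, with the same directions.

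AOL_s00110g71, a second RGS gene without a further name, had a like pattern. It had 27.6, 34.3 and 35.6 TPM in the labelled ΔAorlmA libraries at 0 h, against 111, 86.8 and 97.9 TPM in WT (log2 fold change -1.57 with SE 0.33, adjusted p = 0.00438, limma). At 48 h it had 27.2, 68.4 and 42.02 TPM in the labelled ΔAorlmA libraries and 26.1, 15.3 and 16.4 TPM in WT (log2 fold change 1.15 with SE 0.33, adjusted p = 0.0272). The strains did not overlap at either time, though at 48 h the first labelled ΔAorlmA library lay just above the highest WT library. WT fell over time (log2 fold change -2.33 with SE 0.33, adjusted p = 0.000176), and the change in the labelled ΔAorlmA libraries was not called (log2 fold change 0.40 at adjusted p = 0.398). The interaction was called (log2 fold change 2.72 with SE 0.47, adjusted p = 0.0195) and ended without the second or the third WT library at 48 h. The difference at 0 h and the fall in WT held under all 13 alternatives. The difference at 48 h ended in the fit of those groups alone and without the second or the third library of either strain (adjusted p from 0.00278 to 0.114). In the authors' deposited table AOL_s00110g71 is not marked at 0 h, and is marked at 48 h and over time in WT.

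AOL_s00078g593 is another RGS gene with no further name, and it rose over time in both strains. It had 16.6, 80.9 and 36.4 TPM at 48 h, against 6.71, 3.03 and 5.45 TPM at 0 h in the labelled ΔAorlmA libraries (log2 fold change 2.69 with SE 0.48, adjusted p = 0.00413, limma). In WT it had 10.1, 7.8 and 9.73 TPM at 48 h, against 1.7, 2.53 and 3.91 TPM at 0 h (log2 fold change 1.4951 with SE 0.48, adjusted p = 0.022). Group means spanned 16.4-fold, the widest of any member. At 48 h all 3 labelled ΔAorlmA libraries lay above the WT libraries (log2 fold change 1.89 with SE 0.48, adjusted p = 0.0173), and at 0 h the difference was not called (log2 fold change 0.70 at adjusted p = 0.248). The rise in the labelled ΔAorlmA libraries held under all 13 alternatives. The difference at 48 h ended without the second or the third library of either strain, and the rise in WT without the first or second WT library at 0 h or the first or the third at 48 h. The difference between the rises was not called (log2 fold change 1.1950 with SE 0.68, adjusted p = 0.292), which passed only with both first labelled ΔAorlmA libraries left out.

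The other 3 RGS genes were called in fewer comparisons. AOL_s00076g669, matched to a sorting nexin of Schizosaccharomyces pombe, with 14.1, 14.2 and 9.04 TPM in the labelled ΔAorlmA libraries at 0 h and 31.2, 32.2 and 36.02 TPM in WT, was lower at 0 h (log2 fold change -1.37 with SE 0.37, adjusted p = 0.0129, limma). That call ended after median-of-ratios scaling and without the third labelled ΔAorlmA library. Its fall over time in WT was at the threshold (log2 fold change -0.96 at adjusted p = 0.0494) and ended in 10 of 13 alternatives, among them each that left out a WT library except the first at 48 h. AOL_s00043g377 fell over time in WT, to 2.54, 1.61 and 1.52 TPM at 48 h, against 3.62, 11.5 and 8.12 TPM at 0 h (log2 fold change -1.5014 with SE 0.43, adjusted p = 0.0137), a call that ended with quantile normalization and without the second WT library at 0 h. AOL_s00080g66, matched to Rax1, was not called in any comparison, with 52.1, 20.03 and 21.5 TPM in the labelled ΔAorlmA libraries and 34.99, 36.3 and 38.5 TPM in WT at 0 h. Without the first of those labelled ΔAorlmA libraries it was called lower at 0 h.

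**Figure D4:**
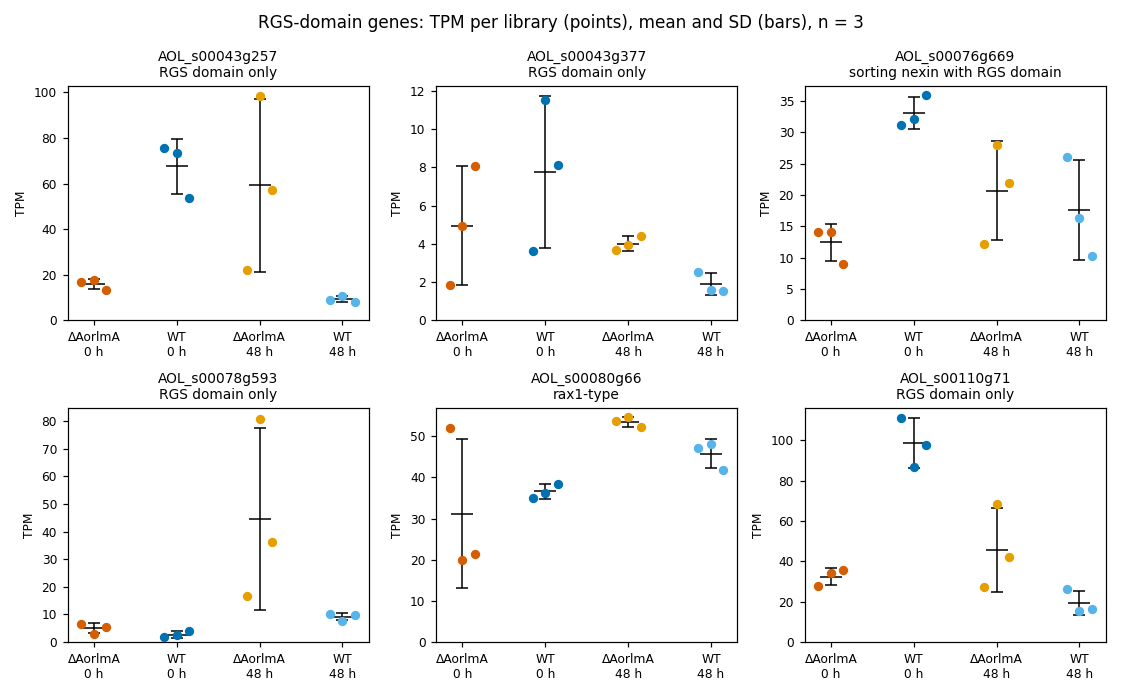
TPM of the 6 RGS genes in each library (points) with the mean and SD of 3 (bars), for the labelled ΔAorlmA strain and WT at 0 h and 48 h. AOL_s00043g257 and AOL_s00110g71 stand below WT at 0 h and above it at 48 h in the labelled ΔAorlmA libraries, and AOL_s00078g593 is higher at 48 h than at 0 h in both strains.

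RasGEF genes encode the exchange factors that turn Ras on. At 0 h, 2 of the 5 were lower and none higher in the labelled ΔAorlmA libraries; at 48 h 1 was higher. Over time in WT 1 rose and 1 fell, and none was called in the labelled ΔAorlmA libraries. AOL_s00075g186, an exchange factor with no further name, had 2.36, 4.34 and 3.5 TPM in the labelled ΔAorlmA libraries at 0 h, against 11.5, 10.2 and 6.89 TPM in WT (log2 fold change -1.26 with SE 0.34, adjusted p = 0.0127, limma). At 48 h the labelled ΔAorlmA libraries had 5.65, 9.68 and 4 TPM and the WT libraries 3, 2.69 and 1.68 TPM (log2 fold change 1.06 with SE 0.34, adjusted p = 0.0411). The strains were thus apart at both times, in opposite directions, at levels of only a few TPM.

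The gene fell over time in WT (log2 fold change -1.5984 with SE 0.34, adjusted p = 0.00258, limma), and its interaction was called (log2 fold change 2.31 with SE 0.48, adjusted p = 0.025). The call at 0 h ended after median-of-ratios scaling and quantile normalization, and the fall in WT with the second of these. The interaction ended with quantile normalization and without the third labelled ΔAorlmA library at 0 h, the first or second WT library at 0 h, or the second or the third WT library at 48 h (adjusted p from 0.0207 to 0.106). Of the 13 alternatives at 48 h 5 kept the call, and leaving out any library but the first labelled ΔAorlmA library ended it (adjusted p from 0.0309 to 0.166). In the authors' deposited table AOL_s00075g186 is not marked at 0 h, and is marked at 48 h and over time in WT. AOL_s00081g175, matched to GefA of Dictyostelium discoideum, was lower at 0 h (log2 fold change -0.9985 with SE 0.31, adjusted p = 0.0238), with 13.1, 14.2 and 8.42 TPM in the labelled ΔAorlmA libraries and 28.5, 23.2 and 21.5 TPM in WT. Its call ended after median-of-ratios scaling (log2 fold change -0.48), quantile normalization and without the third labelled ΔAorlmA library or any 1 WT library.

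AOL_s00117g28, matched to Lte1, which in yeast takes part in the exit from mitosis, rose over time in WT to 15.8, 18.5 and 13.5 TPM at 48 h, against 4.32, 3.16 and 3.12 TPM at 0 h (log2 fold change 1.9014 with SE 0.49, adjusted p = 0.00728, limma). The rise held under all 13 alternatives. In the labelled ΔAorlmA libraries it had 15.3, 8.99 and 10.9 TPM at 48 h, against 15.3, 2.98 and 2.39 TPM at 0 h (log2 fold change 1.05 at adjusted p = 0.137). The first library at 0 h stood at the 48 h level, and without it that change was called. The Cdc25 match AOL_s00004g468, in yeasts the exchange factor of Ras upstream of cAMP, had a like outlying value, with 31.2, 8.32 and 6.57 TPM in the labelled ΔAorlmA libraries at 0 h and 17.7, 15.2 and 16.95 TPM in WT (log2 fold change -0.42 at adjusted p = 0.454). It was called lower at 0 h, and higher at 48 h than at 0 h in the labelled ΔAorlmA libraries, only without that library. AOL_s00110g111, a second GefA match, stayed under 5 TPM in every library and was not called.

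RasGAP genes were read by the domain of proteins that turn Ras off, and whether each of the 4 has that activity was not tested. None of the 4 was called at 0 h, and 1 was lower at 48 h in the labelled ΔAorlmA libraries. The Bud2 match AOL_s00173g249, in S. cerevisiae the GAP of the GTPase that places the bud, rose over time in both strains. It had 102, 70.4 and 66.6 TPM at 48 h, against 47.1, 17.1 and 17.01 TPM at 0 h in the labelled ΔAorlmA libraries (log2 fold change 1.66 with SE 0.36, adjusted p = 0.00995, limma), and 42.2, 59.3 and 55.4 TPM at 48 h, against 16.1, 14.96 and 15.7 TPM at 0 h in WT (log2 fold change 1.67 with SE 0.36, adjusted p = 0.0028). The groups did not overlap in either strain, although the first labelled ΔAorlmA library at 0 h was well above the other two. The interaction was -0.01 (95% interval -1.12 to 1.09). The rise in WT held under all 13 alternatives, and that in the labelled ΔAorlmA libraries under 12, ending in the fit of those groups alone.

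The Rng2 match AOL_s00080g156, which in S. pombe builds the contractile ring, had 14.3, 5.01 and 6.44 TPM in the labelled ΔAorlmA libraries at 48 h and 19.3, 22.3 and 17.1 TPM in WT (log2 fold change -1.21 with SE 0.40, adjusted p = 0.0436, limma). The difference was called in 5 of the 13 alternatives, and among the fits that left out a library it remained only without the first labelled ΔAorlmA library. The Gap1 match AOL_s00083g478, in S. pombe a GAP of Ras, and the neurofibromin match AOL_s00117g11, a mammalian RasGAP, were not called in any comparison. Their strain differences at 0 h were -0.49 (95% interval -1.07 to 0.08) and -0.50 (95% interval -1.15 to 0.14). The annotation lists an OPT domain first for AOL_s00117g11, a model of 9687 bases. Whether that model is a single gene was not tested.

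Small GTPases made up 20 of the members. At 0 h, 1 was higher and 8 lower in the labelled ΔAorlmA libraries. At 48 h, 1 was higher and 3 lower. Over time, 5 rose and 3 fell in WT, and 3 rose and 1 fell in the labelled ΔAorlmA libraries. After median-of-ratios scaling 2 were higher and 1 lower at 0 h, 2 higher and 2 lower at 48 h, and 8 higher and 1 lower over time in WT. The class is mixed: 5 of the 20 have another domain first, among them the mitochondrial translation factors AOL_s00054g582 and AOL_s00075g138. AOL_s00215g224 and AOL_s00215g225 are both matched to Ypt1 of N. crassa and lie 5 bases apart, so their reads may belong to 1 gene, and neither was called.

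The Rac match AOL_s00079g171, a GTPase of actin and polar growth, was called in all 4 pairwise comparisons. It had 155, 200.1 and 117 TPM in the labelled ΔAorlmA libraries at 0 h, against 285, 271 and 262 TPM in WT (log2 fold change -0.82 with SE 0.24, adjusted p = 0.0185, limma). At 48 h it had 413, 299.9 and 289 TPM in the labelled ΔAorlmA libraries, against 614, 727 and 696 TPM in WT (log2 fold change -1.04 with SE 0.24, adjusted p = 0.0138). The strains were apart at both times, with WT above, and both strains were higher at 48 h: 1.09 (adjusted p = 0.0112) in the labelled ΔAorlmA libraries and 1.31 (adjusted p = 0.00112) in WT. The rise in WT held under all 13 alternatives and the rise in the labelled ΔAorlmA libraries under 12, ending in the fit of those groups alone. The difference at 0 h was -0.27 after median-of-ratios scaling and was not called, nor was it without the third labelled ΔAorlmA or the second WT library, and that at 48 h ended without the second or the third library of either strain (adjusted p from 0.00279 to 0.0657). No interaction was called (log2 fold change -0.22 with SE 0.35, adjusted p = 0.739). In the authors' deposited table this gene is marked over time in WT and in no other comparison.

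AOL_s00083g472, matched to a Ras protein of Physarum polycephalum, rose over time in both strains. It had 83.2, 55.9 and 58.7 TPM at 48 h, against 37.1, 12.1 and 16.3 TPM at 0 h in the labelled ΔAorlmA libraries (log2 fold change 1.68 with SE 0.35, adjusted p = 0.00805, limma), and 87.1, 73.9 and 67.2 TPM at 48 h, against 19.97, 20.2 and 21.3 TPM at 0 h in WT (log2 fold change 1.84 with SE 0.35, adjusted p = 0.0013). All 48 h libraries lay above all 0 h libraries. The rise in WT held under all 13 alternatives and that in the labelled ΔAorlmA libraries under 12, the exception being the fit of those groups alone. Between strains, the differences were -0.07 at 0 h (95% interval -0.82 to 0.69) and -0.22 at 48 h (95% interval -0.98 to 0.54).

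Of the 9 calls among small GTPase genes at 0 h, 2 held under all 13 alternatives; they are not described here. Other genes of the class called lower at 0 h included AOL_s00043g43, matched to RYL2 of Yarrowia lipolytica, with 40.9, 59.4 and 42.5 TPM in the labelled ΔAorlmA libraries and 96.7, 99.7 and 93.3 TPM in WT (log2 fold change -1.03 with SE 0.22, adjusted p = 0.00505, limma), and AOL_s00054g360, matched to yptV4 of Volvox carteri (log2 fold change -1.34 with SE 0.32, adjusted p = 0.00705). After median-of-ratios scaling both lost the call, with log2 fold changes of -0.48 and -0.79.

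At 48 h, AOL_s00075g138, matched to the mitochondrial translation factor Guf1, had 27.9, 13.2 and 13.6 TPM in the labelled ΔAorlmA libraries and 49.8, 39.7 and 38.4 TPM in WT, with no overlap (log2 fold change -1.26 with SE 0.31, adjusted p = 0.0152, limma). The call ended without the second or the third labelled ΔAorlmA library or the first WT library. AOL_s00043g43 was lower again (log2 fold change -0.71 at adjusted p = 0.0385) and lost its call in 8 of 13 alternatives, with every library left out but the first labelled ΔAorlmA library. AOL_s00193g132, matched to Rab2 of maize, a GTPase of traffic between the endoplasmic reticulum and the Golgi, was higher, with 24.6, 59.2 and 40.4 TPM in the labelled ΔAorlmA libraries and 22.7, 18.8 and 13.5 TPM in WT (log2 fold change 1.08 with SE 0.32, adjusted p = 0.0314). It ended in the fit of those groups alone and without the second or the third library of either strain.

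Over time, other small GTPase genes were called in WT. There the Ran match AOL_s00193g75 had 866, 1003 and 994 TPM at 48 h, against 566, 532 and 579.7 TPM at 0 h (log2 fold change 0.77 with SE 0.23, adjusted p = 0.0171, limma). Its groups did not overlap, but the call ended without the second WT library at 0 h or the second or the third at 48 h. AOL_s00054g742, a Ras-domain gene with no further name, had 47.7, 38.4 and 43.1 TPM at 48 h, against 89.4, 101 and 119.7 TPM at 0 h (log2 fold change -1.24 with SE 0.34, adjusted p = 0.01) and kept its call under all 13 alternatives. AOL_s00215g541, matched to Rab18, which in animals is found on lipid droplets, fell in WT (log2 fold change -1.38 at adjusted p = 0.0214), with the call ending after median-of-ratios scaling and without the second WT library at 0 h or the second or the third at 48 h.

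In the labelled ΔAorlmA libraries the Rheb match AOL_s00215g525, an activator of the TOR kinase in S. pombe and animals, had 117, 249 and 148 TPM at 48 h, against 88.9, 48.7 and 51.9 TPM at 0 h (log2 fold change 1.41 with SE 0.36, adjusted p = 0.0193, limma). No library at 0 h reached one at 48 h. The call ended in the fit of those groups alone and without the second or the third library at 0 h or the second at 48 h. In WT the change was 0.16 (adjusted p = 0.733), and the interaction was not called (log2 fold change 1.24 at adjusted p = 0.158).

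RhoGEF and RhoGAP genes encode exchange factors and GAPs of small GTPases that act on growth and actin. At 0 h, 1 RhoGEF was higher and 1 lower, and 1 RhoGAP was higher, in the labelled ΔAorlmA libraries. None of the 10 was called between strains at 48 h. Over time, 3 RhoGAP genes rose and 1 RhoGEF gene fell in WT, and in the labelled ΔAorlmA libraries 1 RhoGAP rose, 1 RhoGAP fell and 1 RhoGEF fell. AOL_s00078g332, matched to Rga1 of S. pombe, had 75.7, 69.1 and 37.2 TPM in the labelled ΔAorlmA libraries at 0 h and 26.1, 21.5 and 17.2 TPM in WT, without overlap (log2 fold change 1.4025 with SE 0.30, adjusted p = 0.00473, limma). That call held under all 13 alternatives. At 48 h the labelled ΔAorlmA libraries had 31.4, 28.5 and 30.04 TPM and WT 26.2, 25.7 and 19.2 TPM (log2 fold change 0.34 at adjusted p = 0.427). The fall over time in the labelled ΔAorlmA libraries (log2 fold change -0.93 at adjusted p = 0.0441) ended in 7 of 13 alternatives, among them each fit that left out a library except the third at 0 h.

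AOL_s00054g783, matched to the mouse dynamin-binding protein, an exchange factor of Cdc42, was higher at 0 h as well, with 31.2, 29.8 and 27.6 TPM in the labelled ΔAorlmA libraries and 19.3, 14.02 and 10.5 TPM in WT (log2 fold change 1.01 with SE 0.32, adjusted p = 0.0258, limma). The call ended without the third labelled ΔAorlmA library or the second or the third WT library. It fell over time in the labelled ΔAorlmA libraries (log2 fold change -1.08 at adjusted p = 0.0336), and that call remained, among the fits without a library, only without the first at 0 h. AOL_s00193g77, an exchange factor with no further name, had 2.11, 1.34 and 1.84 TPM in the labelled ΔAorlmA libraries at 0 h and 4.86, 5.27 and 4.81 TPM in WT (log2 fold change -1.12 with SE 0.38, adjusted p = 0.031). Its groups were apart at 0 h, yet the call ended after median-of-ratios and quantile scaling, with the smaller pseudocount, and without any library but the first labelled ΔAorlmA library. At 48 h it had 2.27, 7.08 and 3.26 TPM in the labelled ΔAorlmA libraries and 2.45, 2.19 and 0.50 TPM in WT (log2 fold change 0.92 at adjusted p = 0.09), which overlap.

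AOL_s00193g77 fell over time in WT (log2 fold change -1.23 at adjusted p = 0.0182, limma), a call that ended with quantile normalization and without the second WT library at 0 h or the third at 48 h. Its interaction lay at the threshold (log2 fold change 2.05 with SE 0.53, adjusted p = 0.0489), and 2 of 18 alternatives kept it. Among the fits that left out 1 library, it remained only without the first labelled ΔAorlmA library at 48 h, and adjusted p from 0.0225 to 0.182 spans the alternatives.

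Of the RhoGAP genes that rose over time in WT, AOL_s00076g167, matched to Rga8 of S. pombe, had 139, 142 and 148 TPM at 48 h, against 69.7, 60.6 and 50.6 TPM at 0 h (log2 fold change 1.25 with SE 0.32, adjusted p = 0.0077, limma). AOL_s00054g924, matched to Bem3, in yeast a GAP of Cdc42, had 63.3, 80.00 and 57.6 TPM at 48 h, against 29.1, 24.2 and 22.2 TPM at 0 h (log2 fold change 1.37 with SE 0.34, adjusted p = 0.00573). Both were without overlap and held under all 13 alternatives. AOL_s00079g169, matched to Rga7, rose by less (log2 fold change 0.93 at adjusted p = 0.0291), and its call remained only without the second WT library at 48 h among the fits that left out 1 library. In the labelled ΔAorlmA libraries these genes were not called, with 0.93 (adjusted p = 0.0564) for AOL_s00076g167 and 0.94 (adjusted p = 0.062) for AOL_s00054g924, and the first library at 0 h was the highest of its group for both. Both were called without that library. AOL_s00054g789, matched to GacZ of D. discoideum, was the 1 RhoGAP gene called higher over time in the labelled ΔAorlmA libraries (log2 fold change 0.84 at adjusted p = 0.0327). That call ended in 7 of 13 alternatives, and without any library but the first at 0 h.

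**Figure D5:**
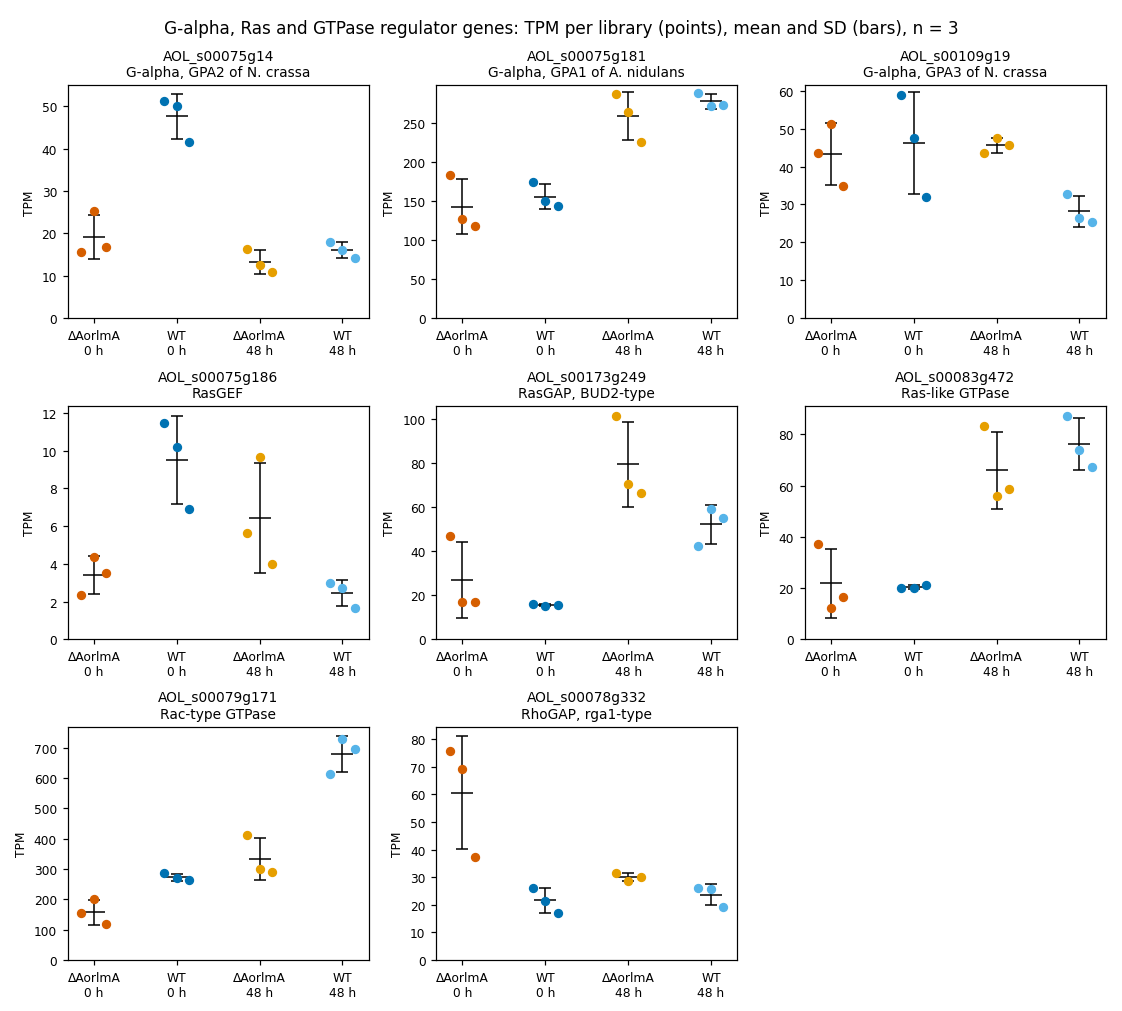
TPM of 8 members of the G-alpha, RasGEF, RasGAP, small GTPase and RhoGAP classes in each library (points) with the mean and SD of 3 (bars), for the labelled ΔAorlmA strain and WT at 0 h and 48 h. AOL_s00078g332 is higher in the labelled ΔAorlmA libraries at 0 h and near WT at 48 h, and AOL_s00079g171, AOL_s00083g472 and AOL_s00173g249 are higher at 48 h in both strains.

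Other genes of these pathways that carry none of the domains of the rule were read from lists by domain, 43 in all, of which 41 were tested. At 0 h, 2 were higher and 15 lower in the labelled ΔAorlmA libraries, and at 48 h 2 were higher and 5 lower. Over time, 5 rose and 14 fell in WT, and 4 rose and 4 fell in the labelled ΔAorlmA libraries. After median-of-ratios scaling 4 were higher and 3 lower at 0 h, and 10 higher and 12 lower over time in WT. Their median log2 fold change at 0 h was -0.71, beside -0.56 over all genes. These counts stand beside 33.8% of all genes lower at 0 h and 28.7% lower over time in WT. None had a called interaction. Without both first labelled ΔAorlmA libraries, 1 was higher and 25 lower at 0 h (9.62% and 43.7% of all genes), and 6 had a called interaction (14.4% of all genes). Of these, 4 were in the TBC list. The other 2 were the nte1 match AOL_s00043g143 and the F-box match AOL_s00080g127, in the cAMP list by domain alone.

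In the cAMP and protein kinase A list, 5 of the 8 genes were lower at 48 h than at 0 h in WT and none higher, beside 28.7% of all genes lower. With quantile normalization 3 were lower. The regulatory subunit of protein kinase A, AOL_s00075g84, which holds the kinase inactive until cAMP binds, had 26.2, 26.7 and 19.9 TPM at 48 h, against 132, 97.3 and 55.2 TPM at 0 h in WT (log2 fold change -1.85 with SE 0.32, adjusted p = 0.000678, limma). It fell in the labelled ΔAorlmA libraries too (log2 fold change -1.07 at adjusted p = 0.0332), a call that remained, among fits without 1 library, only without the first at 0 h. A phosphodiesterase gene, AOL_s00083g160, whose product breaks down cyclic nucleotides, had 25.9, 22.4 and 24.6 TPM at 48 h, against 82.8, 71.2 and 61.7 TPM at 0 h in the labelled ΔAorlmA libraries (log2 fold change -1.52 at adjusted p = 0.00295). In WT it had 21.6, 16.1 and 15.1 TPM at 48 h, against 53.1, 40.3 and 39.5 TPM at 0 h (log2 fold change -1.29 at adjusted p = 0.00141), and both calls held under all 13 alternatives. A second one, AOL_s00097g378, fell in WT (log2 fold change -2.78 at adjusted p = 0.00469), where the third library at 0 h, at 46.7 TPM, was far below the other two. Of the 5 that fell in WT, the nte1 match AOL_s00043g143 and the F-box match AOL_s00080g127 entered the list by domain alone.

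The list of GDP dissociation inhibitors, which keep small GTPases soluble in the GDP form, was read by domain, and 1 of its 3 genes, AOL_s00004g630, is matched to a Rab escort protein, which serves prenylation. All 3 were lower in the labelled ΔAorlmA libraries at 0 h, and all 3 fell over time in WT (33.8% and 28.7% of all genes). After median-of-ratios scaling none of the differences at 0 h was called. The Rab inhibitor AOL_s00079g13 had 476, 939 and 646 TPM in the labelled ΔAorlmA libraries at 0 h and 1465, 1363 and 1605 TPM in WT (log2 fold change -1.16 with SE 0.30, adjusted p = 0.0107, limma). The prenylation list includes enzymes that add the lipid anchor of Ras and related proteins. It also holds the methyltransferase match AOL_s00043g492, the CAAX protease match AOL_s00215g567 and AOL_s00109g115, which has no Swiss-Prot match. Of its 10 genes, 5 were lower at 0 h and 3 at 48 h in the labelled ΔAorlmA libraries (33.8% and 14.7% of all genes). After median-of-ratios scaling 3 were lower at either time (11.1% and 12.2% of all genes). The farnesyltransferase alpha subunit AOL_s00076g79 (log2 fold change -1.55 at adjusted p = 0.00245) and beta subunit AOL_s00078g43 (log2 fold change -1.41 at adjusted p = 0.00356) held their calls at 0 h under all 13 alternatives. The list also holds a lanosterol synthase match, AOL_s00054g195, an enzyme of sterol synthesis, which rose over time in WT (log2 fold change 1.45 at adjusted p = 0.00988).

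Of the 11 TBC genes, which encode GAPs of Rab proteins, the Gyp7 match AOL_s00076g384 had 47.8, 181 and 132 TPM in the labelled ΔAorlmA libraries at 48 h and 23.9, 31.6 and 16.5 TPM in WT (log2 fold change 2.13 with SE 0.41, adjusted p = 0.00716, limma), a call that held under all 13 alternatives. It was also called higher at 0 h, with 138, 110 and 122 TPM against 53.4, 61.3 and 50.4 TPM in WT. That call ended without any 1 library of either strain. Over time it fell in WT, a call kept in 8 of 13 alternatives. Both G-beta list genes rose over time in WT: the beta subunit match AOL_s00004g438 (log2 fold change 0.81 at adjusted p = 0.0444), whose call ended without any 1 library of WT, and the beta-like protein match AOL_s00173g232 (log2 fold change 1.39 at adjusted p = 0.00554), a ribosome-bound scaffold in other fungi. The Ste20 and Cla4 matches AOL_s00004g340 and AOL_s00079g352, kinases that bind Cdc42 and Rac, were not called in any comparison. For both, the first labelled ΔAorlmA library at 0 h was the highest of its group, and without both first labelled ΔAorlmA libraries both were called lower at 0 h (log2 fold changes -1.19 and -0.98 at adjusted p = 0.0092 and 0.01385, limma). In that fit the Ste20 match was also called lower at 48 h (log2 fold change -0.978 at adjusted p = 0.0248, limma). The 20 genes set aside by the pathway maps include the ras-2 match AOL_s00215g7 and the flbA match AOL_s00215g516, in A. nidulans the RGS protein of the G-alpha subunit. At 48 h, 1 of these 20 was higher and 4 lower in the labelled ΔAorlmA libraries (9.20% and 14.7% of all genes). At 0 h, 2 were higher and 5 lower (8.87% and 33.8% of all genes). AOL_s00215g516 was higher at 48 h (log2 fold change 1.51 at adjusted p = 0.0146, limma), a call lost without the second or the third of those libraries, and at 0 h (log2 fold change 1.08 at adjusted p = 0.0306), a call kept in 8 of 13 alternatives. The Rab11 match AOL_s00054g363, a GTPase of recycling endosomes in animals, was lower at 48 h (log2 fold change -1.52 at adjusted p = 0.00683), which held under all 13 alternatives. It was also called lower at 0 h, a call kept in 10 of 13 alternatives and lost after median-of-ratios scaling.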

How the data were processed

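Hyphal RNA of 12 libraries in 4 groups of 3 was sequenced by Illumina protocols, per the labels' protocols. The genotype and time labels gave the groups, and the titles the replicate numbers.

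The authors deposited TPM per gene, rounded to 2 decimals, and FPKM with Pfam, KEGG and Swiss-Prot annotation, per the file headers; within a library FPKM was TPM times a constant, to within 0.044%. Clean read counts per library come from the authors' deposited statistics. No gene count was used, since the table named for raw counts holds correlations; the planned test for normalised values therefore replaced a count test. Group means, in 8 columns, were not used. For the aligner, quantifier and genome build, the sources used here give no name. All 11479 gene names matched the RefSeq table given with the data.

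The 9355 genes that reached 1 TPM in 3 or more libraries entered 1 limma fit (version 3.58.1, R 4.3.3; eBayes with a variance trend) on log2(TPM + 1), with a mean per group, two-sided tests and Benjamini-Hochberg adjustment over all genes tested, called under 0.05. The fit was tested on simulated data. Members were sorted by Pfam domain, the first match of the order in which the classes are listed deciding. Named were all receptor, G-alpha, RGS, RasGEF and RasGAP genes, and of the other classes up to 3 called members per direction with the lowest adjusted p in each pairwise comparison, and up to 5 for the interaction. Alternatives were median-of-ratios scaling, quantile normalization, a pseudocount of 0.1, no filter on low values, a fit of the compared groups alone, the replicate number as a block, leaving out each library, and, chosen after seeing the data, leaving out both first labelled ΔAorlmA libraries. The members and lists were chosen with earlier results of these data known. No sequences were used here. For 2 small GTPase genes that the rule for named genes picks, single results are not reported here, though all counts include them.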

Additional observations from a re-analysis of the deposited data

Results flagged for a closer look

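The change over time differed between the strains, by the limma test of the interaction, for 4 members. The RGS gene AOL_s00043g257 had an interaction of 4.35 on the log2 scale: 1.61 over time in the labelled ΔAorlmA libraries and -2.74 in WT. The RGS gene AOL_s00110g71 had 2.72, with 0.40 in the labelled ΔAorlmA libraries and -2.33 in WT. The RasGEF gene AOL_s00075g186 had 2.31, with 0.71 and -1.5984 in the same order of strains. The RhoGEF gene AOL_s00193g77 had 2.05, with 0.82 in the labelled ΔAorlmA libraries and -1.23 in WT. In all 4, the WT change was a called fall, and the change in the labelled ΔAorlmA libraries was called for AOL_s00043g257 alone.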

How the results depend on the processing

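Over the 5 comparisons, in the order strains at 0 h, strains at 48 h, WT over time, labelled ΔAorlmA libraries over time and interaction, the counts of members called moved as follows. With median-of-ratios scaling the number of members called at 0 h was 14, and the members' median log2 fold change was 0.042 between strains at 0 h, 0.0175 over time in WT and 0.0076 for the interaction. With quantile normalization that median was -0.18 at 0 h and 0.0885 over time in WT, and 2 members had a called interaction. In the fit of the compared groups alone, 1 member was called over time in the labelled ΔAorlmA libraries (4.68% of all genes). Leaving out 1 library at a time gave 15 to 27 members called between strains at 0 h, 1 to 19 at 48 h, 15 to 23 over time in WT, 4 to 21 over time in the labelled ΔAorlmA libraries and 1 to 6 for the interaction; the members' median ran from -0.1971 to 0.0598 over time in WT. Over the fits without 1 library, 22.4% to 47.3%, 5.25% to 33.1%, 34.6% to 41.0%, 7.70% to 36.8% and 0.182% to 9.36% of all genes were called. Leaving out both first labelled ΔAorlmA libraries, an alternative chosen after seeing the data, gave 23 members called between strains at 48 h, 23 over time in the labelled ΔAorlmA libraries and 10 for the interaction. No named member with a called change reversed its sign under the alternatives run. Of the 24, 11, 26, 12 and 4 calls in the order of comparisons above, 9, 1, 11, 1 and 1 held under every alternative run.

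Whether the replicate numbers pair the libraries is not known. Deviations of same-numbered libraries from their group means correlated at 0.121, 0.102 and -0.023 for the strains at 0 h. The values were -0.316, 0.008 and 0.05 for the strains at 48 h, and -0.081, 0.044 and 0.007 over time in WT. They were 0.173, -0.037 and 0.188 over time in the labelled ΔAorlmA strain. Differently numbered libraries correlated at -0.411 to 0.338. With 3 libraries per group, such deviations cannot decide whether libraries were paired. With the replicate number as a block, 24, 11, 26 and 13 members were called in the pairwise comparisons and 3 for the interaction.

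Without counts per gene, depth sets no stated limit here, and 3 libraries per group limit the precision.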
